A study of Mus musculus with 9 samples.

Results

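The genes that encode the proteins of the cytosolic ribosome were followed in murine leukaemia cells after knockdown of Syncrip, which encodes an hnRNP protein that binds RNA. Members were taken by symbol: every entry named Rpl or Rps followed by a number, with an optional letter or paralog ending, together with Rplp0, Rplp1, Rplp2 and Rpsa, and without symbols marked as pseudogenes or the Rps6k kinases. This gave 87 members of the 38926 symbols in the tables, 51 named for the large subunit and 36 for the small subunit, and each stood in 1 entry. In the mouse annotation 83 were protein coding, while Rps12l1, Rps3a2 and Rps3a3 were processed pseudogenes and Rps12l2 had no entry. Fau and Gnb2l1 (Rack1) also encode ribosomal proteins and fall outside the rule; they are given as other ribosome components.

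The cells carried the MLL-AF9 fusion, the product of a chromosomal translocation that drives acute myeloid leukaemia, and had been passaged through 3 rounds of transplantation in mice. The groups were cells with shRNA-1 against Syncrip, cells with shRNA-2 against Syncrip and cells with a control hairpin, with 3 libraries each, all taken at day 4 after transduction. The fusion, the transplantation history and the transduction were shared by all 3 groups. The sample labels call the control hairpin scrambled and the design text names luciferase as its target, which is left unsettled here. Neither the age nor the strain of the mice is named in the labels. Each sample was transduced and processed on its own and no separate mice are named, so p-values measure the spread over cultures that may come from one leukaemia.

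A ribosome joins a large and a small subunit, each built from ribosomal RNA and a set of proteins that are nearly all needed in equal numbers. Ribosomal protein mRNAs are among the most abundant in growing cells, and their translation is controlled through a pyrimidine-rich stretch at the 5′ end, the TOP motif, which responds to mTOR and LARP1. Several members have a paralog that is used in particular tissues, and mammalian genomes carry many processed pseudogenes, intronless copies of ribosomal protein mRNAs. Free Rpl5 and Rpl11, bound to 5S RNA, hold back Mdm2 and so raise p53 when ribosome assembly is disturbed.

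The sequences of a few members beside their copies show what the counts can resolve. The first 60 bases of the Rpl10a coding sequence and of its processed copy Rpl10a-ps1 were the same, and so were all 654 bases that aligned. Rps13 and Rps13-ps2 were identical over 453 aligned bases. Rps24 and Rps24-ps2 were identical at 366 of 386 aligned bases (94.8%), and the stretch with the most differences is printed with them in capitals. Rpl10a lies at chr17:28328471-28331033 and Rpl10a-ps1 at chr1:64993951-64994604; Rps24 lies at chr14:24487125-24496959 and Rps24-ps2 at chr3:3791898-3792292 (GRCm38, the assembly of mm10; transcripts from GENCODE M21, written in the sense of the member).
Rpl10a: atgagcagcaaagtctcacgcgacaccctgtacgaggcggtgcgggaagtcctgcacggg
Rpl10a-ps1: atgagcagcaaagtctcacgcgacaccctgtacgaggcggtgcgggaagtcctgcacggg
Rps24: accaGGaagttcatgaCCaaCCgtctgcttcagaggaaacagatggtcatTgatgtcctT
Rps24-ps2: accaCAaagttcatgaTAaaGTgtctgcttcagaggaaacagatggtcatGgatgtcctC

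These copies took a large part of the counts. A total of 474 pseudogene entries could be tied to 69 members by name or by at least 50 shared windows of 50 bases. They held 37.3% of the counts of members and copies together. For 41 members the copies held more counts than the member's own entry. Rpl10a had 117 counts over all 9 libraries and its 3 copies had 111527. Rps13 had 348 counts and its copies had 142480, and Rps14 had 128844 counts against 529540 in 1 copy. How reads with several positions were treated is a step no label describes. Its part in the level counted for a member was not tested. Over the 85 members with a transcript and a count above the filter, the mean level and the share of 50-base windows found in no other gene's transcript had a Spearman rho of 0.586, as a description across genes that share libraries. The 33 members with at least 50% of their windows unique had a median level of 418 CPM (counts scaled by library size, per 1e+06), and the 52 below that had a median of 21.6 CPM. All values that follow are of the member's own entry unless the copies are named.

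**Figure D1:**
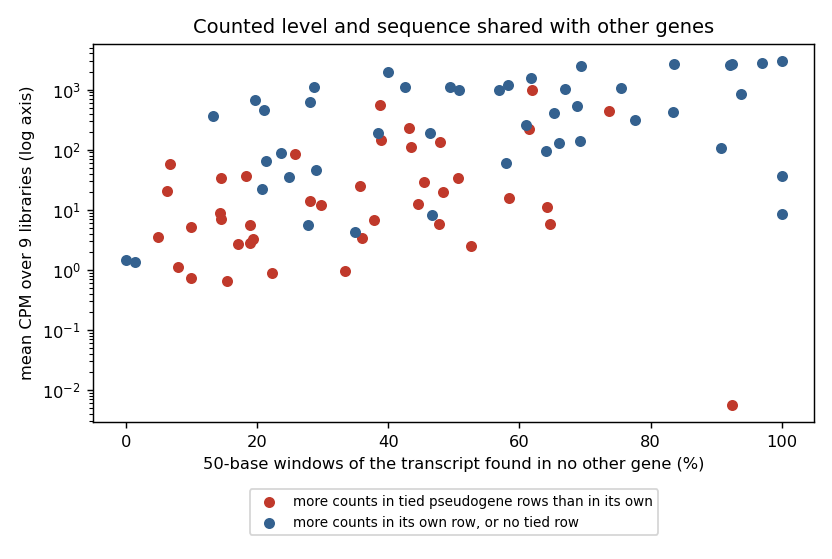
Mean level of each annotated member over the 9 libraries (CPM, log axis) against the percentage of 50-base windows of its transcript that occur in no other gene. Red points are the 41 members whose tied pseudogene entries hold more counts than their own entry; 32 of them lie below 50% unique windows.

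Of the 87 members, 86 passed the filter on low counts; Rpl10l, a paralog of Rpl10 used in the testis, had 1 count in a single control library. The libraries held 9559638 to 13416141 counts with shRNA-1, 14953491 to 15915940 with shRNA-2 and 13683660 to 19483923 in control cells. Syncrip itself was at 20.1, 15.9 and 17.3 CPM with shRNA-1 and at 63.2, 46.3 and 60.4 CPM with shRNA-2, against 241, 231 and 207 CPM in control cells. Ribosomal RNA entries (Gm26924, mt-Rnr1 and mt-Rnr2) took 11.98% to 19.3% of the counts with shRNA-1 and 6.10% to 15.8% with shRNA-2, against 4.77% to 8.29% in control cells. Summed markers of mature neutrophils were at 29076 to 37231 CPM with shRNA-1 and 35294 to 50193 CPM with shRNA-2, against 12197 to 12663 CPM in control cells (10 of 11 markers passed the filter). Summed monocyte and macrophage markers were at 834 to 946 CPM with shRNA-1, 1282 to 1978 CPM with shRNA-2 and 736 to 1008 CPM in control cells. Of 12 tested, 1 was higher and 0 lower with shRNA-1 (median log2 fold change 0.72). With shRNA-2, 11 were higher and 0 lower (median 2.39). Between the hairpins, 11 were lower and 0 higher with shRNA-1 (median -2.55). The progenitor list, with Kit, Myb, Hoxa9 and Mpo, summed to 9867 to 13252 CPM with shRNA-1, 6539 to 10039 CPM with shRNA-2 and 5812 to 6828 CPM in control cells. Within that progenitor list most members fell: of 13 tested, 3 were higher and 7 lower with shRNA-1 (median log2 fold change -0.33), and 1 was higher and 8 lower with shRNA-2 (median -0.49). Its sum was carried by the granule protease genes Elane, at 4124 ± 1307 CPM with shRNA-1 and 3665 ± 1196 CPM with shRNA-2, against 1598 ± 179 CPM in control cells, and Prtn3, at 4274 ± 527 CPM with shRNA-1 and 2994 ± 501 CPM with shRNA-2, against 2313 ± 328 CPM in control cells (SD, n = 3 each). The libraries with either hairpin stood above the controls in the neutrophil list. Summed T and NK cell markers were at 29.9 to 35.4 CPM with shRNA-1, 6.32 to 10.6 CPM with shRNA-2 and 17.2 to 17.97 CPM in control cells. Only 2 of these 9 markers passed the filter, and with shRNA-2 1 was called higher and 1 lower. Summed megakaryocyte markers were at 10.98 to 33.9 CPM with shRNA-1, 16.7 to 79.1 CPM with shRNA-2 and 6.03 to 7.56 CPM in control cells. Of these 8 markers 4 passed the filter, with 1 called higher with shRNA-1 and 2 with shRNA-2, and 0 lower with either. Erythroid markers summed to at most 1.85 CPM in any library, with Epor, Alas2 and Car1 at 0 throughout. The part of the ribosomal RNA share and of these markers in the results was not tested. A fit that held the ribosomal RNA share constant is given below. The shRNA-1 libraries all had a larger share than the controls, so that fit cannot separate the share from the hairpin. In bulk RNA, fewer cells of a type and less RNA per cell cannot be told apart.

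The 87 members together held 3.73%, 3.85% and 3.78% of the counts of the shRNA-1 libraries. They held 2.93%, 3.84% and 3.47% with shRNA-2, and 3.71%, 4.296% and 4.11% in control cells. The groups overlapped. The widest 95% interval (exact binomial, Clopper-Pearson) was that of shRNA-1 replicate 1, from 3.72% to 3.75%. It covers counting error only, so the spread between cultures set the precision. After TMM scaling (trimmed mean of M-values, which sets the bulk of genes equal between libraries), the summed level was 40440 ± 1783 CPM with shRNA-1 and 36066 ± 7921 CPM with shRNA-2, against 36263 ± 2408 CPM in control cells (SD, n = 3 each). The raw share with shRNA-1 had a lower mean than the control, while the TMM-scaled sum had a higher one. The 5 members with the most counts, among them Rps3, Rps20, Rpl4 and Rpl8, held 36.7% of all member counts.

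**Figure D2:**
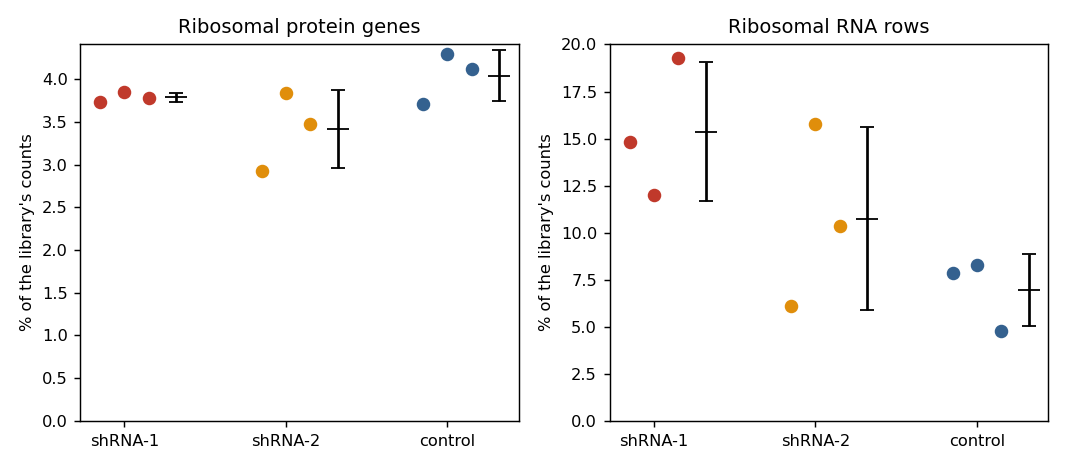
Share of each library's counts (%) held by the ribosomal protein genes and by the ribosomal RNA entries. Points are libraries, and the bars beside them give the mean and SD of 3; the member shares overlap between groups (2.93% to 3.84% with shRNA-2, 3.71% to 4.296% in control cells), and the shRNA-1 libraries have 11.98% to 19.3% of ribosomal RNA, above all 3 controls.

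Levels per kilobase of transcript in control cells were high for Rpl32 at 4191 CPM per kb, Rplp1 at 3571 and Rpl8 at 3151 CPM per kb. Proteins that occur once per ribosome were thus counted at very unequal levels: Rpl3, a core protein of the large subunit, was at 27.4 CPM per kb with 14.4% unique windows, and Rps27 at 3.84 CPM per kb with 1.35% unique windows. Among paralog pairs, Rpl39l was at 29.0 and Rpl39 at 625 CPM per kb, and Rpl22l1 was at 374 and Rpl22 at 2111 CPM per kb. Rps27l was at 490 CPM per kb, above its namesake. These are levels in control cells, divided by the length of 1 representative transcript per gene.

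With shRNA-1, 17 of 86 members passed the test, 16 higher and 1 lower (edgeR's quasi-likelihood test, Benjamini-Hochberg adjusted p under 0.05). That is 19.8% of the members, against 34.7% of all 12663 genes tested (17.4% higher and 17.3% lower). The median log2 fold change of the members was 0.27, against 0.02 over all genes. With shRNA-2, 25 members passed, 16 higher and 9 lower, which is 29.1% of the members against 48.7% of all genes (24.4% higher and 24.2% lower), and the median log2 fold change was 0.06 against 0.00. The 9 lower members were all of the large subunit, and 0 of 36 small subunit members passed as lower; that difference between subunits was not tested. The members' log2 fold changes were less spread than those of all genes, with an SD of 0.36 against 0.70 for shRNA-1 and 0.46 against 0.95 for shRNA-2. Scaled to total counts without TMM, which put the all-gene median at -0.23 (shRNA-1) and -0.21 (shRNA-2), the calls were 3 higher and 5 lower for shRNA-1 (8.56% and 27.4% of all genes, 35.9% in all) and 5 higher and 17 lower for shRNA-2 (16.8% and 33.2% of all genes, 50% in all), so the balance of directions depends on the scaling. The members' median was then 0.017 for shRNA-1 and -0.17 for shRNA-2. In a fit that held the ribosomal RNA share constant, 8 members were higher and 0 lower with shRNA-1 (6.53% and 4.19% of all genes, 10.7% in all), and 12 were higher and 13 lower with shRNA-2 (23% and 22.7% of all genes, 45.7% in all). In that fit the members' median with shRNA-1 was 0.0076, against -0.0088 over all genes. The ribosomal RNA share did not overlap between shRNA-1 and control libraries, so the fit cannot separate it from the hairpin. Leaving out shRNA-1 replicate 3 or control replicate 3 left 8 calls with shRNA-1, shRNA-1 replicate 2 left 9 and shRNA-1 replicate 1 left 10; leaving out control replicate 3, shRNA-2 replicate 3 or shRNA-1 replicate 2 left 13, 15 and 16 calls with shRNA-2.

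**Figure D3:**
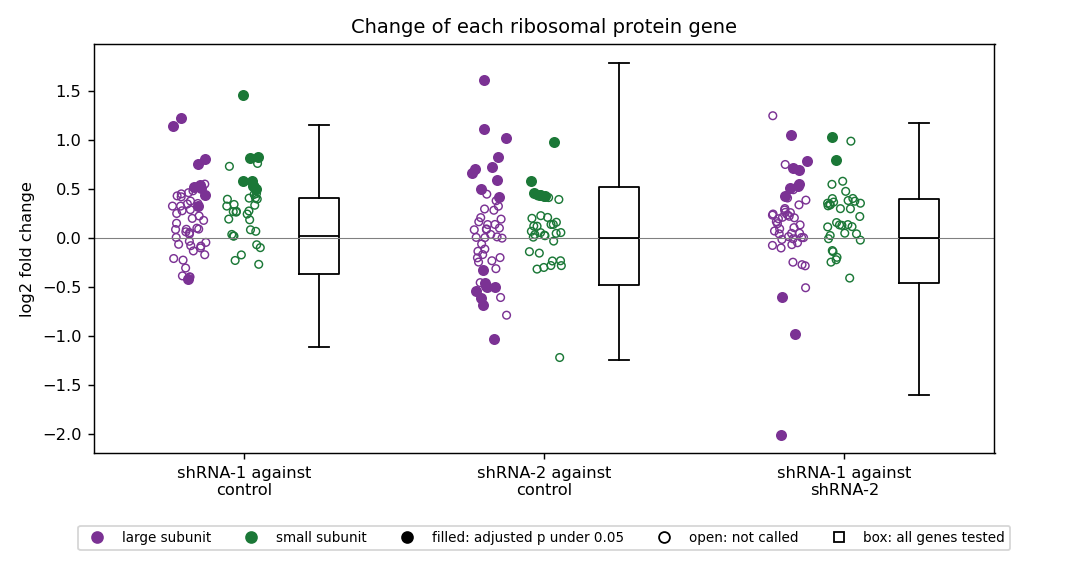
Log2 fold change of each of the 86 tested members in the 3 comparisons, large subunit and small subunit in separate columns, with filled points for an adjusted p under 0.05. The box shows all 12663 genes tested (median, quartiles, and whiskers at the 5th and 95th percentiles); the filled points below 0 for shRNA-2 against control are 9 large subunit members.

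A total of 8 members were called the same way by both hairpins (9.3%, against 18.8% of all genes), 7 higher (9.24% of all genes) and 1 lower (9.57% of all genes). Both comparisons use the same 3 control libraries. The higher members included Rpl39l, Rps16, Rplp2, Rpl30, Rps27a and Rpl27, and the lower one was Rpl4. Leaving out control replicate 1 left 2 of these shared calls and control replicate 3 left 3; leaving out shRNA-1 replicate 1 left 4, and shRNA-1 replicate 2, shRNA-2 replicate 3 or control replicate 2 left 5 each. Scaling to total counts in place of TMM gave 6 shared calls, 1 higher and 5 lower. The main direction of the shared set thus moved with the scaling, but the genes as a whole moved down too. Under total counts the all-gene median log2 fold change was -0.23 for shRNA-1 and -0.21 for shRNA-2. No share of all genes called by both hairpins is given for that scaling. The swing to lower calls therefore cannot be told from the general shift. Under total counts the shRNA-1 calls of Rplp2, Rpl30, Rps27a and Rpl27 were lost. The shRNA-2 calls of Rps16, Rpl30, Rps27a and Rpl27 were lost too. Holding the ribosomal RNA share constant left the shRNA-1 changes at 0.53 for Rplp2, 0.48 for Rps27a and -0.23 for Rpl4 (edgeR adjusted p = 0.123, 0.17 and 0.473), and Rpl39l at 0.37 and Rps27a at 0.39 with shRNA-2 (0.0507 and 0.0629), none past the threshold.

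Rpl39l, a paralog of Rpl39 that is abundant in the testis in mice, rose with both hairpins. It had 46.0, 50.7 and 58.4 CPM with shRNA-1 and 28.3, 44.7 and 33.1 CPM with shRNA-2, against 24.4, 23.5 and 22.2 CPM in control cells. All 6 knockdown libraries lay above all 3 controls, and the shRNA-1 libraries lay above those with shRNA-2. Its log2 fold change was 1.15 ± 0.17 with shRNA-1 (SE; edgeR adjusted p = 0.000629) and 0.60 ± 0.17 with shRNA-2 (edgeR adjusted p = 0.0107), and the hairpins differed by 0.55 ± 0.16 (edgeR adjusted p = 0.0188). Without shRNA-1 replicate 3 that last difference was 0.46 with an edgeR adjusted p of 0.0756, and without shRNA-2 replicate 3 it was 0.50 with 0.0693. It was 0.35 with the ribosomal RNA share held constant (edgeR adjusted p = 0.0632) and 0.52 in a fit of only the hairpin libraries (0.0534). All of its windows were unique and no pseudogene entry was tied to it (chr16:10170226-10174911, GRCm38). Rpl39 itself, which lines the exit tunnel of the ribosome, was at 434 ± 103 CPM with shRNA-1 and 438 ± 234 CPM with shRNA-2, against 382 ± 70.3 CPM in control cells (SD, n = 3 each), and did not pass the test.

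Rps16, a small subunit protein near the decoding site, had 19.3, 30.4 and 17.99 CPM with shRNA-1 and 24.5, 9.74 and 14.4 CPM with shRNA-2, against 6.95, 9.08 and 8.67 CPM in control cells. Every knockdown library lay above every control, with a log2 fold change of 1.46 ± 0.30 with shRNA-1 (edgeR adjusted p = 0.00374) and 0.99 ± 0.30 with shRNA-2 (edgeR adjusted p = 0.0178). Without shRNA-2 replicate 1 the change with shRNA-2 was 0.57 with an edgeR adjusted p of 0.0706, and without control replicate 1 it was 0.89 with 0.0663. Its copies held 96.3% of the combined counts. With these added, the level was 487 ± 29.1 CPM with shRNA-1 and 444 ± 34.8 CPM with shRNA-2, against 324 ± 44.5 CPM in control cells, and the log2 fold changes were 0.60 and 0.47 (edgeR adjusted p = 0.00491 and 0.0104).

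Rplp2 forms the acidic stalk of the large subunit together with Rplp0 and Rplp1, the site where elongation factors bind. It had 164, 149 and 128 CPM with shRNA-1 and 189, 173 and 174 CPM with shRNA-2, against 115, 104 and 82.2 CPM in control cells. The groups did not overlap, and shRNA-2 lay above shRNA-1. This gave a log2 fold change of 0.55 ± 0.14 with shRNA-1 (edgeR adjusted p = 0.0128) and 0.83 ± 0.14 with shRNA-2 (edgeR adjusted p = 0.000623); without shRNA-1 replicate 1 or control replicate 3 the call with shRNA-1 was lost (edgeR adjusted p = 0.0545 and 0.0605). Rplp0 was at 1267, 1205 and 1275 CPM with shRNA-1 and 1024, 1467 and 1430 CPM with shRNA-2, against 1107, 877 and 948 CPM in control cells. The shRNA-2 libraries overlapped the controls, and its call with shRNA-2 (log2 fold change 0.42, edgeR adjusted p = 0.049) was lost without any 1 of 7 libraries (each shRNA-1 library, shRNA-2 replicates 2 and 3, control replicates 2 and 3), with adjusted p from 0.0657 to 0.153. Rplp1, with 2122 ± 461 CPM with shRNA-1 and 1914 ± 1070 CPM with shRNA-2, against 1782 ± 529 CPM in control cells (SD, n = 3 each), did not pass. The 3 stalk genes thus differed in whether they passed, and that difference was not tested.

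Rpl4, a large subunit protein that reaches into the exit tunnel, was the member lower with both hairpins. It had 2700, 2376 and 2327 CPM with shRNA-1 and 2546, 2043 and 2446 CPM with shRNA-2, against 3207, 3299 and 3396 CPM in control cells. The knockdown libraries all lay below the controls, with a log2 fold change of -0.42 ± 0.15 with shRNA-1 (edgeR adjusted p = 0.0433) and -0.49 ± 0.15 with shRNA-2 (edgeR adjusted p = 0.0152). The first call was lost without any 1 of 7 libraries, each of the shRNA-1 and control libraries and shRNA-2 replicate 3, with values from -0.49 to -0.38 and edgeR adjusted p from 0.051 to 0.134. The second was lost without control replicate 3 (-0.45, edgeR adjusted p = 0.0541). No pseudogene entry was tied to Rpl4 and 83.5% of its windows were unique.

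**Figure D4:**
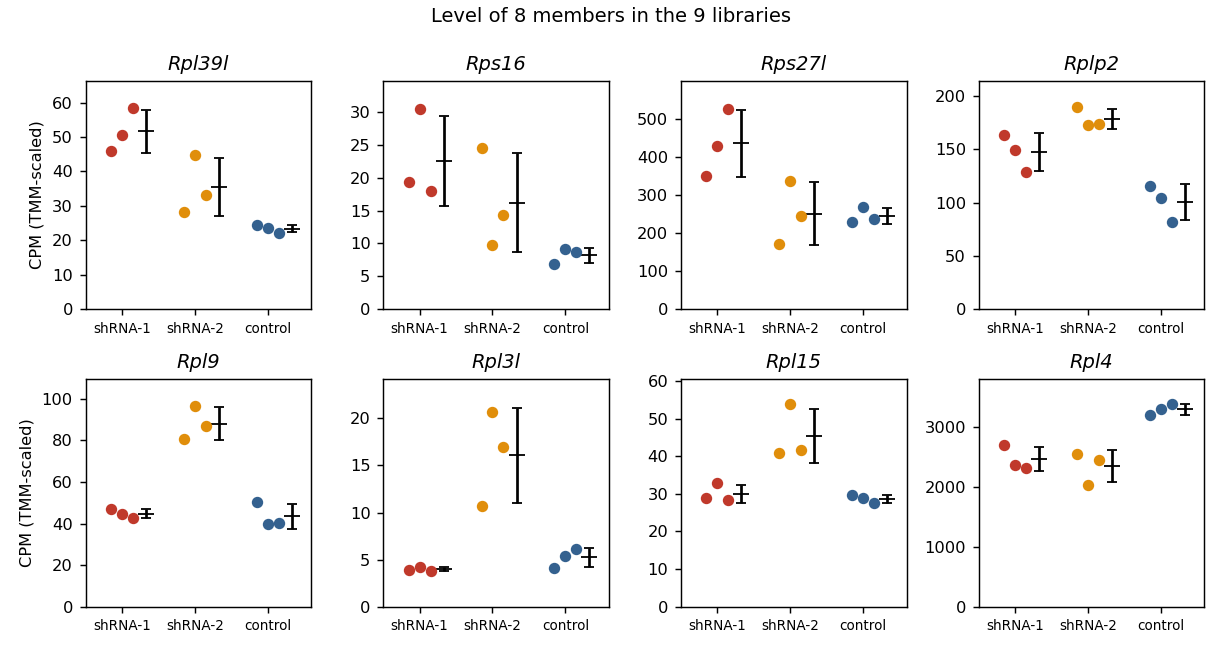
TMM-scaled level (CPM) of 8 members in each library, with the mean and SD of 3 beside the points. Rpl39l, Rps16 and Rplp2 lie above the controls with both hairpins, Rpl4 lies below them, Rps27l is high with shRNA-1, and Rpl9, Rpl3l and Rpl15 are high with shRNA-2.

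Of the other members called with both hairpins, Rpl30 had 111, 129 and 94.0 CPM with shRNA-1 and 108, 69.5 and 93.9 CPM with shRNA-2, against 59.7, 75.7 and 56.0 CPM in control cells. The shRNA-1 libraries lay above all controls, whereas 1 shRNA-2 library lay among them. Its log2 fold change was 0.81 ± 0.18 with shRNA-1 (edgeR adjusted p = 0.0058) and 0.50 ± 0.18 with shRNA-2 (edgeR adjusted p = 0.0366). The call with shRNA-2 was lost, in turn, without its replicate 1 (edgeR adjusted p = 0.0955) or replicate 3 (0.0895), and without the first (0.0972) or the third control (0.12). Rps27a encodes a fusion of ubiquitin with a small subunit protein. It was at 16.4 ± 2.52 CPM with shRNA-1 and 14.9 ± 0.382 CPM with shRNA-2, against 10.9 ± 0.605 CPM in control cells (SD, n = 3 each), with 98.9% of the combined counts in its copies. Its call with shRNA-1 was lost without shRNA-1 replicate 3 (edgeR adjusted p = 0.0511) and that with shRNA-2 without control replicate 1 or 2 (0.0606 and 0.0556). With copies added, the change of Rps27a was 0.64 with shRNA-1 and 0.18 with shRNA-2 (edgeR adjusted p = 0.0147 and 0.419). Rpl27 averaged 4.38 ± 1.02 CPM with shRNA-1 and 4.01 ± 2.90 CPM with shRNA-2, against 1.87 ± 0.225 CPM in control cells (SD, n = 3 each), with log2 fold changes of 1.22 and 1.12 (edgeR adjusted p = 0.0424 and 0.0429). Its call with shRNA-1 was lost without shRNA-1 replicate 1 or 2 or any control library, and its call with shRNA-2 without any of these or shRNA-2 replicate 1, where it went to 0.34 (edgeR adjusted p = 0.356).

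Further members were higher with shRNA-1. Rps27l, a paralog of Rps27 and a known p53 target, had 351, 429 and 527 CPM with shRNA-1 and 172, 336 and 245 CPM with shRNA-2, against 230, 268 and 236 CPM in control cells. The shRNA-1 libraries lay above all others, and those with shRNA-2 spread to both sides of the controls. The log2 fold change with shRNA-1 was 0.83 ± 0.22 (edgeR adjusted p = 0.0126), and the hairpins differed by 0.80 ± 0.22 (edgeR adjusted p = 0.0125); without shRNA-1 replicate 3 these were 0.67 and 0.64, with edgeR adjusted p of 0.0552 and 0.0533. Holding the ribosomal RNA share constant, the change with shRNA-1 was 0.22 (edgeR adjusted p = 0.563). Rps3a1 had 64.1, 61.9 and 52.7 CPM with shRNA-1, against 34.6, 38.1 and 28.7 CPM in control cells, a log2 fold change of 0.82 ± 0.18 (edgeR adjusted p = 0.00518) that held in every fit without 1 library and was 0.58 with total counts (0.0559). Rps3, a small subunit protein at the mRNA entry, had 3219, 3245 and 3244 CPM with shRNA-1, against 2387, 2655 and 2329 CPM in control cells; the groups did not overlap and the edgeR adjusted p was 0.0594.

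Other members were higher with shRNA-2. Rpl3l, a paralog of Rpl3 that is used in heart and skeletal muscle, had 3.95, 4.22 and 3.78 CPM with shRNA-1 and 10.7, 20.6 and 16.9 CPM with shRNA-2, against 4.16, 5.44 and 6.15 CPM in control cells. The shRNA-2 libraries lay above all others and the remaining 6 overlapped. The log2 fold change with shRNA-2 was 1.61 ± 0.24 (edgeR adjusted p = 0.000208), and shRNA-1 against shRNA-2 gave -2.004 ± 0.26 (edgeR adjusted p = 0.000103). All of its windows were unique (chr17:24727820-24736143, GRCm38), and both calls held in all 21 alternative fits.

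Rpl9, a large subunit protein at the base of the stalk, had 47.1, 44.5 and 42.6 CPM with shRNA-1 and 80.5, 96.6 and 87.0 CPM with shRNA-2, against 50.5, 39.8 and 40.0 CPM in control cells. The shRNA-2 libraries stood apart from the other 6, with a log2 fold change of 1.02 ± 0.13 (edgeR adjusted p = 7.41e-05). Only 6.68% of its windows were unique, and with its copies added the change was 0.53 (edgeR adjusted p = 0.00621). Rpl15 had 28.9, 32.8 and 28.2 CPM with shRNA-1 and 40.8, 53.8 and 41.6 CPM with shRNA-2, against 29.6, 28.8 and 27.6 CPM in control cells, and again the shRNA-2 libraries stood apart. Its log2 fold change with shRNA-2 was 0.66 ± 0.13 (edgeR adjusted p = 0.00166). Nkiras1, which overlaps Rpl15 on the opposite strand, fell by 0.94 on the log2 scale with shRNA-2 (edgeR adjusted p = 0.00755); without a stated strand setting, reads of such a pair cannot be told apart.

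Among the falls with shRNA-2, Rpl24, which bridges the subunits, had 32.6, 40.5 and 40.5 CPM with shRNA-1 and 20.002, 22.3 and 26.8 CPM with shRNA-2, against 49.0, 42.6 and 48.8 CPM in control cells. No groups overlapped, and with shRNA-2 the log2 fold change was -1.02 ± 0.14 (edgeR adjusted p = 0.000143), and with copies added it was -0.31 (edgeR adjusted p = 0.0787). Rpl17 was at 71.6 ± 7.95 CPM with shRNA-1 and 49.5 ± 2.01 CPM with shRNA-2, against 75.4 ± 6.11 CPM in control cells (SD, n = 3 each), a log2 fold change of -0.61 with shRNA-2 (edgeR adjusted p = 0.0015) and of -0.44 with copies added (0.0214). Rpl22l1, a paralog of the RNA-binding protein Rpl22, had 234, 247 and 234 CPM with shRNA-1 and 110, 162 and 144 CPM with shRNA-2, against 233, 166 and 190 CPM in control cells. Its libraries with shRNA-2 lay below all others. The log2 fold change with shRNA-2 was -0.50 ± 0.16 (edgeR adjusted p = 0.0221), lost without shRNA-2 replicate 1 or control replicate 1 (0.0654 and 0.107), and the hairpins differed by 0.78 ± 0.16 (edgeR adjusted p = 0.00249). Rpl22 itself was at 1171 ± 38.3 CPM with shRNA-1 and 1010 ± 190 CPM with shRNA-2, against 1000 ± 62.9 CPM in control cells (SD, n = 3 each), and did not pass.

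Rpl5, which with Rpl11 restrains Mdm2, was called in opposite directions. It had 26.9, 26.6 and 32.2 CPM with shRNA-1 and 11.7, 15.5 and 14.2 CPM with shRNA-2, against 19.6, 19.9 and 20.3 CPM in control cells. The 3 groups did not overlap. Rpl5 had a log2 fold change of 0.52 ± 0.14 with shRNA-1 (edgeR adjusted p = 0.0128; 0.0641 without shRNA-1 replicate 3) and -0.53 ± 0.14 with shRNA-2 (edgeR adjusted p = 0.00789), and the hairpins differed by 1.05 ± 0.14 (edgeR adjusted p = 0.000145). The call with shRNA-1 was also lost with total counts (0.27, edgeR adjusted p = 0.128) and with the ribosomal RNA share held constant (0.26, 0.393). With its copies, 72.0% of the combined counts, the change was 0.49 with shRNA-1 and -0.03 with shRNA-2 (edgeR adjusted p = 0.0196 and 0.871), and the hairpins differed by 0.52 (0.0119). Fam69a on the opposite strand was higher by 0.81 with shRNA-2 (edgeR adjusted p = 0.0111). Rpl11 was at 7.39 ± 0.913 CPM with shRNA-1 and 6.13 ± 0.737 CPM with shRNA-2, against 6.61 ± 0.489 CPM in control cells (SD, n = 3 each), and did not pass. Its copies held 99.1% of the combined counts. With these added, Rpl11 was at 853 CPM with shRNA-1 and 702 CPM with shRNA-2, against 822 CPM in control cells. It did not pass then either (edgeR adjusted p = 0.822 and 0.357). Rps19, the gene most often mutated in Diamond-Blackfan anaemia in humans, was higher with shRNA-2 (0.43, edgeR adjusted p = 0.0422), a call lost without any 1 of the same 7 libraries as that of Rplp0, with adjusted p from 0.0567 to 0.142, and Rpsa did not pass in any comparison.

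The hairpins against each other gave 13 calls, 10 higher and 3 lower with shRNA-1, which is 15.1% of the members against 41% of all genes (19.7% higher and 21.3% lower). The median log2 fold change was 0.20, against 0.00 over all genes. The 3 lower with shRNA-1 were Rpl3l, Rpl9 and Rpl15, and the 10 higher included Rpl5, Rpl22l1, Rpl24, Rpl17, Rps27l and Rpl39l. Without shRNA-2 replicate 2 there were 23 calls. The shRNA-2 libraries also differed most among themselves: for the 39 members at 100 CPM or more, the median coefficient of variation was 8.203% with shRNA-1 and 22.6% with shRNA-2, against 10.1% in control cells, and over the 1893 genes at that level it was 7.86%, 14.4% and 9.01% in the same order of groups.

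Adding the tied pseudogene entries to their members, an alternative chosen after the data had been seen, gave 33 calls of 86 with shRNA-1, with 31 higher and 2 lower. Of all genes in that fit 35.4% were called, 18.2% higher and 17.3% lower. With shRNA-2 it gave 23 calls, with 18 higher and 5 lower, where 49.6% of all genes were called, 25.7% higher and 23.9% lower. The members' median log2 fold change with shRNA-1 was 0.35, against 0.03 over all genes. Several members with few counts of their own then passed. Rpl10a, which forms the L1 stalk of the large subunit, reached 1299 ± 117 CPM with shRNA-1 and 726 ± 182 CPM with shRNA-2, against 652 ± 161 CPM in control cells (SD, n = 3 each), a log2 fold change of 1.00 ± 0.22 with shRNA-1 (edgeR adjusted p = 0.00455). Its own entry had 1.19 ± 0.568 CPM with shRNA-1, against 0.797 ± 0.192 CPM in control cells. Rps6, the substrate of the S6 kinases, was at 101 ± 4.81 CPM with shRNA-1 and 49.4 ± 11.5 CPM with shRNA-2, against 56.1 ± 12.6 CPM in control cells, a log2 fold change of 0.85 with shRNA-1 (edgeR adjusted p = 0.00578). Rps13 summed to 766 ± 144 CPM with shRNA-2, against 1156 ± 6.17 CPM in control cells, and was lower by -0.58 on the log2 scale (edgeR adjusted p = 0.00556). The sums over all copies stood at 26075 ± 327 CPM with shRNA-1 and 22115 ± 4045 CPM with shRNA-2, against 19656 ± 700 CPM in control cells. The 3 shRNA-1 libraries lay above all controls.

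**Figure D5:**
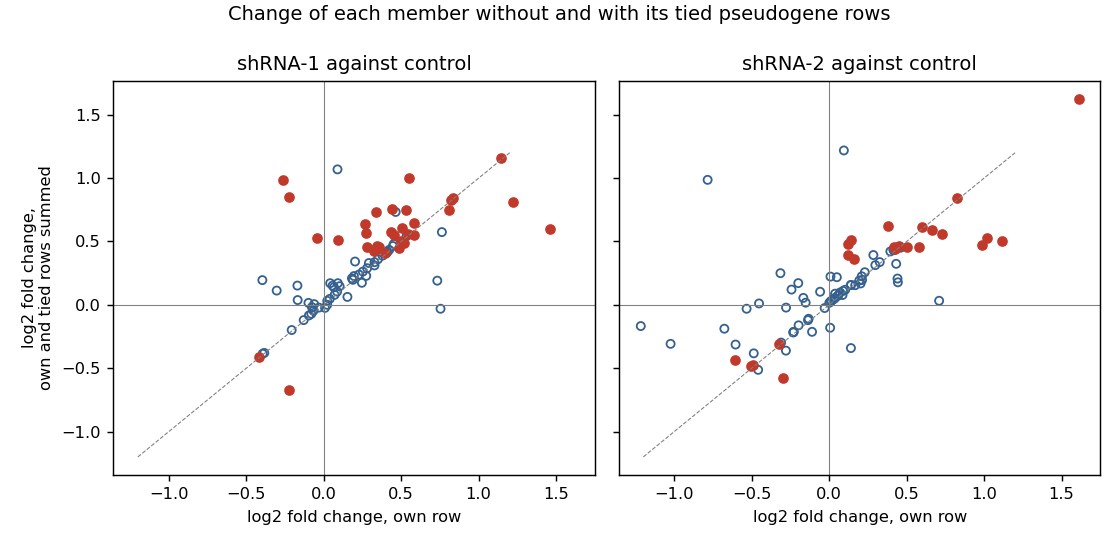
Log2 fold change of each member from its own entry (horizontal) and from its own and tied pseudogene entries summed (vertical), with shRNA-1 against control on the left and shRNA-2 against control on the right. Filled red points passed at an adjusted p under 0.05 with the entries summed (33 and 23 members), and points on the dashed line did not move.

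The genes of the ribosome pathway outside the rule are given from lists of related genes. Fau, which encodes a small subunit protein fused to a ubiquitin-like one, was higher with both hairpins, at 6.19 ± 0.742 CPM with shRNA-1 and 6.70 ± 0.570 CPM with shRNA-2, against 3.72 ± 0.857 CPM in control cells (SD, n = 3 each; edgeR adjusted p = 0.0174 and 0.0049). Gnb2l1 did not pass. Of 22 tested non-ribosomal mRNAs of the TOP class, 4 were higher and 5 lower with shRNA-1, and 1 was higher and 10 lower with shRNA-2, with medians of 0.09 and -0.34. Tpt1, a TOP mRNA for a calcium-binding growth-related protein, was higher with both, at 75.4 ± 8.22 CPM with shRNA-1 and 59.7 ± 13.05 CPM with shRNA-2, against 44.3 ± 3.59 CPM in control cells. It was the 1 of the 22 called higher with both hairpins, while 5 were called lower with both.

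Of 24 chaperones and subunit export factors, 2 were higher and 5 lower with shRNA-1, and 1 was higher and 13 lower with shRNA-2. Riok1, a kinase of late small subunit maturation, fell by 0.76 and 0.68 on the log2 scale with shRNA-1 and shRNA-2, and Lsg1, a GTPase of late large subunit maturation, fell by 0.66 and 0.85. Of 23 regulators of TOP mRNAs and of ribosomal DNA, 4 were higher and 6 lower with shRNA-1, and 2 were higher and 9 lower with shRNA-2. Polr1a, the largest subunit of RNA polymerase I, had 11.5, 13.7 and 10.5 CPM with shRNA-1 and 6.81, 4.64 and 6.54 CPM with shRNA-2, against 32.2, 27.3 and 25.1 CPM in control cells, with log2 fold changes of -1.24 and -2.23 (edgeR adjusted p = 0.000507 and 3.61e-06). Larp1, which binds the TOP stretch, fell by 1.07 with shRNA-1 and by 0.79 with shRNA-2 (edgeR adjusted p = 0.00535 and 0.0155). Myc, which drives ribosomal genes, was higher by 0.63 with shRNA-1 (edgeR adjusted p = 0.0489) and at -0.27 with shRNA-2 (0.342). Of 12 genes of nucleolar stress and p53, 5 were higher and 2 lower with shRNA-1, and 7 were higher and 2 lower with shRNA-2; Zmat3, a p53 target, had log2 fold changes of 1.02 and 2.27, and the nucleolar protein Ncl -1.38 and -0.90. Npm1, a nucleolar chaperone of ribosome assembly, was lower with both, at 765 ± 16.9 CPM with shRNA-1 and 439 ± 34.2 CPM with shRNA-2, against 1126 ± 138 CPM in control cells (SD, n = 3 each). These counts stand against the same background over all genes as the members.

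Introns of ribosomal protein genes carry small nucleolar RNAs (snoRNAs), which guide the modification of ribosomal RNA and are released from the introns by splicing. A total of 21 snoRNA entries inside 16 members passed the filter; they were looked at after other results had been seen. With shRNA-1, 6 were higher and 0 lower, and with shRNA-2, 0 were higher and 16 lower. Of all genes tested, 17.4% were higher and 17.3% lower with shRNA-1, and 24.4% were higher and 24.2% lower with shRNA-2. The summed level of the 21 snoRNA entries was 189, 254 and 342 CPM with shRNA-1 and 24.1, 59.2 and 45.1 CPM with shRNA-2, against 118, 103 and 110 CPM in control cells. The 3 groups did not overlap. Most of each sum came from 1 entry, Gm26205 in Rpl6. It had 121, 181 and 225 CPM with shRNA-1 and 15.1, 36.7 and 29.1 CPM with shRNA-2, against 69.9, 57.9 and 61.4 CPM in control cells. The median entry averaged only 1.61 CPM. The 3 snoRNA entries in Rpsa, Gm24044, Gm26448 and Snora62, had log2 fold changes of 1.11, 1.15 and 2.18 with shRNA-1 and of -2.44, -2.86 and -2.16 with shRNA-2, while Rpsa itself was at 217 ± 36.1 CPM with shRNA-1 and 171 ± 49.2 CPM with shRNA-2, against 190 ± 7.79 CPM in control cells. Of 69 other snoRNA entries, 27 were higher and 0 lower with shRNA-1, and 1 was higher and 33 were lower with shRNA-2, so a shift of the same sign was found outside the members too. First-strand cDNA was primed with oligo-dT and the second strand with random decamers, and whether a snoRNA entry counts mature snoRNA or unspliced host RNA was not tested.

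The region around the start of transcription was read for 63 of 87 members from the RefSeq promoter table (GRCm38.p6), from 250 bases before to 50 after the start. The letters CTTTCC on the sense strand, from 30 before to 50 after the start, were found in 28.6% of these members, against 4.44% of the 8585 tested genes in the table. CTCTTTC was found in 19.0% against 1.32%. These motifs share the letters CTTTC, so the counts overlap. CCGGAAG, a core bound by ETS factors such as GABP, was found on either strand of the whole window in 41.3% of members against 21.3% of tested genes, and TATAAA near the start in 7.94% against 1.74%. A match is a string of letters and not a site, and no call was tied to a motif. The windows of Rpl4 and Rpl39l, whose calls with both hairpins went in opposite directions, both hold CTTTCC; Rps15a shows CTCTTTC, Rps27l CCGGAAG and Rpl22l1 TATAAA. Each is printed from 60 bases before to 20 after the start, with the motif in capitals, at chr9:64173327-64173406 (+), chr16:10170168-10170247 (+), chr7:118116128-118116207 (-), chr9:66946026-66946105 (+) and chr3:28805448-28805527 (+).
Rpl4: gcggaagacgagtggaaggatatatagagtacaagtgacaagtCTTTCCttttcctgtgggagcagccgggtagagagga
Rpl39l: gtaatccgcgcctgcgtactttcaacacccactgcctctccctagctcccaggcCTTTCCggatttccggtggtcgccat
Rps15a: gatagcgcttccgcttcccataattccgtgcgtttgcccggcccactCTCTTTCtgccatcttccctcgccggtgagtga
Rps27l: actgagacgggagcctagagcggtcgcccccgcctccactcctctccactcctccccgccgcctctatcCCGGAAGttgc
Rpl22l1: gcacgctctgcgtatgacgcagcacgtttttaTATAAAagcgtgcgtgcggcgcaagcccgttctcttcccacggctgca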

How the data were processed

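The deposited files hold raw read counts per gene symbol, made by the authors with STAR 2.3.0e, HTSeq 0.6.0 and the build mm10, per the submitters' processing notes; no source used here gives the annotation, the strand setting or how multi-mapped reads were handled. Per the labels' protocols, first-strand cDNA was primed with oligo-dT and the second strand with random decamers. Counts were summed per symbol, filtered with filterByExpr (12663 genes kept), scaled with TMM and fitted over all 9 libraries with edgeR 4.0.16 (R 4.3.3), using the quasi-likelihood test, Benjamini-Hochberg adjustment over all genes and a threshold of 0.05; the fit was tested on simulated data. A first simulation failed its condition on recovery of changed genes; the simulation and the condition (now on genes of at least 5 CPM) were then revised, and the revised test passed. Levels are CPM. Members were named by role, paralogy, level, size of change or shared calls. Members, lists and tests were chosen with earlier results of these data known. Pseudogene entries were tied to members by name or by at least 50 shared 50-base windows of GENCODE M21 transcripts. Alternatives covered scaling, filter, DESeq2 1.42.0, the replicate block, the ribosomal RNA share, the groups fitted and each library left out. Intervals cover counting error only. A few genes are not reported here.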

Additional observations from a re-analysis of the deposited data

Results flagged for a closer look

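For 13 members the effects of the hairpins differed in a test of shRNA-1 against shRNA-2 (edgeR's quasi-likelihood test, adjusted p under 0.05). The log2 differences, shRNA-1 minus shRNA-2, were 1.05 for Rpl5, 1.03 for Rps13, 0.80 for Rps27l, 0.78 for Rpl22l1, 0.72 for Rpl24, 0.70 for Rpl28, 0.55 for Rpl39l, 0.53 for Rpl17, 0.51 for Rpl12 and 0.43 for Rpl35a, and -0.60 for Rpl15, -0.98 for Rpl9 and -2.004 for Rpl3l. The calls of Rpl15, Rpl17, Rpl22l1, Rpl24, Rpl3l, Rpl5 and Rpl9 held in all 21 alternatives, whereas that of Rpl28 held in 3 of 20. With pseudogene entries added, the differences were smaller for Rpl5 (0.52), Rpl24 (0.42), Rpl17 (0.42) and Rpl15 (-0.45). That of Rpl9 was then -0.36 (edgeR adjusted p = 0.0482), while Rpl22l1 was at 0.77 and Rpl3l at -2.01. That of Rps13 was lost in 7 of 20, with total counts, with the replicate block and without 5 single libraries (shRNA-1 replicates 1 and 2, shRNA-2 replicates 2 and 3, control replicate 2), at the least 0.80 without shRNA-1 replicate 2 (edgeR adjusted p = 0.167). That of Rpl12 was lost in 3 of 21 and was 0.23 with pseudogene entries added (edgeR adjusted p = 0.511). Those of Rpl39l, Rpl35a and Rps27l were lost in 4, 3 and 1 of 21. Residual Syncrip also differed between the hairpins, at 17.8 ± 2.13 CPM with shRNA-1 and 56.7 ± 9.05 CPM with shRNA-2 (SD, n = 3 each), and its part in these differences was not tested.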

How the results depend on the processing

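The shares called over all genes are given above for total counts, for the ribosomal RNA fit and for pseudogene entries added, with each hairpin against control. For the other alternative fits they are not given, here or above, so those counts show only how the calls moved. With total counts in place of TMM, 8 members were called with shRNA-1, and the median log2 fold changes were 0.017 with shRNA-1 and -0.17 for shRNA-2. Holding the ribosomal RNA share constant, 8 were called with shRNA-1, and the medians were 0.0076 with shRNA-1 and 0.12 for shRNA-1 against shRNA-2. Fitting only the groups compared gave 26 calls with shRNA-1, and using no filter gave a median of 0.22. With pseudogene entries added, the calls were 33 with shRNA-1, 20 between the hairpins and 14 with both; the median with shRNA-1 was 0.35. The cause was not tested. Leaving out each library gave 8 to 24 calls with shRNA-1, 13 to 26 with shRNA-2, 9 to 23 between the hairpins and 2 to 9 with both; the medians were 0.20 to 0.30, -0.06 to 0.18 and 0.14 to 0.31. The mean member share was 3.76% to 3.81% with shRNA-1, 3.20% to 3.65% with shRNA-2 and 3.91% to 4.21% in control cells. Leaving ribosomal RNA out of the denominator gave 4.48% with shRNA-1 and 4.34% in control cells; leaving out mitochondrial genes too gave 4.52%, 3.88% with shRNA-2 and 4.39% in control cells. Without the member with the most counts it was 3.49% with shRNA-1 and 3.73% in control cells.

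With the replicate number as a block, 22 members were called with shRNA-1, 29 with shRNA-2, 15 between the hairpins and 12 with both. Libraries with the same number had correlations of -0.13 to 0.34 in their deviations from the group means, others -0.42 to 0.29. For 6 of 9 libraries the best match had their own number. The main fit did not pair the libraries, and whether the numbers mark pairs is left unsettled.

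DESeq2 called 20 members with shRNA-1, 26 with shRNA-2 and 14 between the hairpins. Depth limits the 16 members that averaged under 5 CPM. Over the genes reported here there were 53 single-gene calls in the main fit, each checked under the alternatives that tested the gene. Of these pairs of call and alternative, 905 kept the call and 204 lost it.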
